A study of Homo sapiens with 6 samples.

Results

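Keratins are the intermediate filament proteins of epithelial cells, and their messenger RNAs were followed here in breast cancer cells given a form of vitamin D. The members were every row of the deposited count table whose name is KRT followed by a number and, at most, the letter A, B or C, which leaves out keratin-associated proteins, antisense genes and pseudogenes. By this rule 43 of the 33451 genes in the table are keratins, 19 of them type I and 24 type II.

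A keratin filament is built from pairs of one type I protein, which is acidic, and one type II protein, which is neutral or basic, so a cell makes members of both types. Type II genes lie together on chromosome 12 and type I genes on chromosome 17, apart from KRT18, a type I gene that lies beside its partner KRT8 on chromosome 12. Simple epithelia, such as the luminal cells of the breast, use KRT8 with KRT18 and often KRT7 and KRT19. Stratified epithelia use other pairs, and the hair shaft and nail have keratins of their own.

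The cells were MDA-MB-453, an established human breast cancer line, so all values come from a single line. The experimental group was cultured for 5 days with 100 nM 25(OH)D, the vitamin D metabolite that circulates in blood, and the control group for the same time with 0.1% alcohol as solvent. Each group had 3 libraries of messenger RNA, with totals between 33268860 and 40928176 counts. The methods of the study call the replicates biological, while the sample labels do not say whether the libraries came from separate cultures, and p-values measure the spread between these libraries.

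Values are given as deposited counts, as CPM (counts brought to one library size with TMM factors) for a gene across libraries, and as RPKM (counts set against exon length and library total) where different genes are compared. A keratin was called higher or lower in the 25(OH)D group when its adjusted p from the quasi-likelihood test of edgeR, with the Benjamini-Hochberg adjustment over all 18183 genes tested, was under 0.05. Positions are those of GRCh38.

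KRT3 and KRT4 are neighbouring type II genes, and both were among the most changed keratins, so their promoter windows are shown. Each window runs from 250 bases before to 50 bases after the RefSeq start site on GRCh38.p14 and is written 5′ to 3′ on the minus strand, the strand of both genes. The KRT3 window is chr12:52796068-52796367 and the KRT4 window is chr12:52814067-52814366. KRT4 as counted here begins at 52814551, upstream of its RefSeq start site, so the whole KRT4 window lies inside the counted gene. Capitals mark matches on either strand to the TATA box (TATAAA), the AP-1 site (TGANTCA), a core of AP-2 sites (GCCNNNGGC) or a half-site of the kind that nuclear receptors such as the vitamin D receptor recognise. The half-sites searched were AGGTCA and, as variants, GGTTCA together with AGTTCA and also GGGTCA.
KRT3 promoter: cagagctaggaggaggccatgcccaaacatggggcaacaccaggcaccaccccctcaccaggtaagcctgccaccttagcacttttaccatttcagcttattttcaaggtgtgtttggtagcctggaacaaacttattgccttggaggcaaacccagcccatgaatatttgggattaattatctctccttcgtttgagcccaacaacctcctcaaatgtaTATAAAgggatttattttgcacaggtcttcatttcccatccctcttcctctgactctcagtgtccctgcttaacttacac
KRT4 promoter: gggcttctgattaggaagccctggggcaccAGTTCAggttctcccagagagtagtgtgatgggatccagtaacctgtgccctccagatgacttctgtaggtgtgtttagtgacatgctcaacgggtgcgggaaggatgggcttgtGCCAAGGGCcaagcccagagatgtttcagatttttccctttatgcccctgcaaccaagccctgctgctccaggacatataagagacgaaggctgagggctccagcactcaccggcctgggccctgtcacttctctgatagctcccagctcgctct

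The KRT3 window held the TATA box 30 bases before the start site and no other of these matches. The KRT4 window held a half-site 220 bases before the start and the AP-2 core 105 bases before it. RefSeq windows were at hand for 23 of the 43 keratins. Of the keratins called higher or lower, only KRT3, KRT4 and KRT8 had a window. The promoters of KRT7, KRT16, KRT18, KRT19, KRT23, KRT80 and KRT81 were not searched. The TATA box was found in 12 of these 23 (52.2%) and in 11.5% of the 35116 windows of all genes. A half-site was found in 9 (39.1%), against 38.6% of all windows, and the AP-2 core in 4 (17.4%), against 23.2%. No keratin window held the AP-1 site, which was in 7.71% of all windows, and none held a pair of half-sites with 3 bases between them, which 0.074% of all windows held. These letters are a description of the windows and do not show that a factor binds there.

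Of the 43 keratins, 14 had enough counts to be tested, and 8 of the 14 were higher and 2 lower with 25(OH)D, while 4 passed in neither direction. Over all genes tested, 17.3% were higher and 16.5% were lower by the same rule. The 8 higher keratins were KRT3, KRT4, KRT7, KRT8, KRT80 and KRT81 of type II and KRT16 and KRT18 of type I, and the 2 lower ones, KRT19 and KRT23, were both type I. By the limits of the study, which ask for a log2 fold change past 1 in either direction with p under 0.05 before adjustment, KRT3, KRT4, KRT16 and KRT81 were higher (4 keratins, against 4.02% of all genes) and KRT23 was lower (1 keratin, against 2.63%). The values of the groups did not overlap for 11 of the 14, against 45.7% of all genes. The median log2 fold change was 1.21 over the 7 type II genes tested and -0.35 over the 7 type I genes tested, while it was -0.01 over all genes. The genes that passed the filter do not stand for all keratins: KRT23 reached the filter's level of 0.271 CPM in no 25(OH)D library, and KRT3 and KRT81 reached it in 2 of the 3 control libraries.

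**Figure D1:**
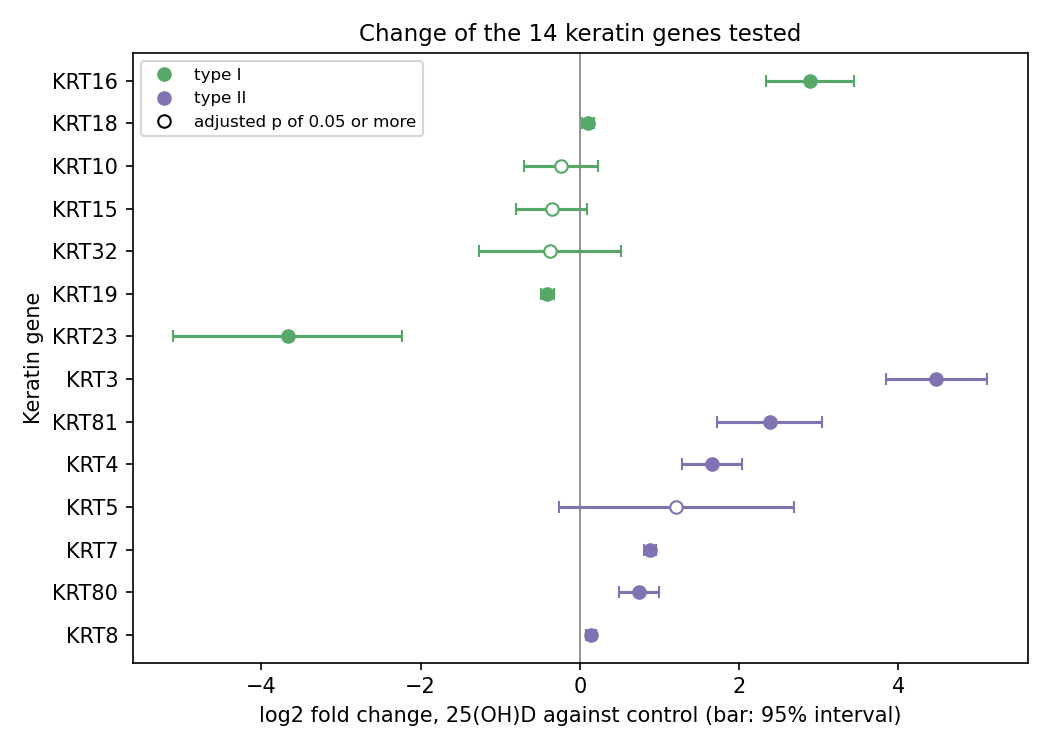
Log2 fold change of 25(OH)D against control for each of the 14 keratins tested, with its 95% interval; colour gives the type and open points have an adjusted p of 0.05 or more. All 7 type II points lie above 0, 6 of them filled, while the 7 type I points run from -3.67 for KRT23 to 2.89 for KRT16.

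The 4 abundant keratins of this line were those of simple epithelium, and they moved by small factors in different directions. KRT7, a type II keratin of glandular and ductal epithelium (chr12:52232520-52252186, plus strand), measured 503, 502 and 481 CPM in control and 913, 926 and 898 CPM with 25(OH)D. The groups were far apart, and the log2 fold change was 0.88 (SE 0.0342, adjusted p = 8.89e-11). KRT7 shares 282 exon bases with RP3-416H24.1, a gene on the opposite strand with 5408 to 6151 counts in control and 8678 to 10007 with 25(OH)D. Whether the counting used strand is not stated in the sources used here, so reads of the shared bases cannot be told apart.

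KRT8, the type II partner found in nearly all simple epithelia (chr12:52897187-52949954, minus strand), measured 1693, 1636 and 1692 CPM in control and 1869, 1825 and 1840 CPM with 25(OH)D. Every 25(OH)D library was above every control library, but the rise was small (log2 fold change 0.14, SE 0.0307, adjusted p = 0.00258).

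KRT18, the type I partner of KRT8 (chr12:52948871-52952901, plus strand), measured 549, 523 and 539 CPM in control and 583, 579 and 568 CPM with 25(OH)D. The groups did not overlap, and the log2 fold change was 0.10 (SE 0.0343, adjusted p = 0.0307 by edgeR). This call rested on the scaling: with library sizes alone the change was 0.06 (adjusted p = 0.196 by edgeR) and with upper-quartile factors it was 0.06 (adjusted p = 0.206). It was also lost without control library 2 (adjusted p = 0.12 by edgeR) and without 25(OH)D library 1 or 2 (adjusted p = 0.0818 and 0.0815). KRT8 and KRT18 share 525 exon bases on opposite strands, so these reads too cannot be assigned without strand.

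KRT19, the smallest keratin and a common luminal marker (type I, chr17:41523617-41528308, minus strand), went the other way. It measured 817, 765 and 790 CPM in control and 587, 613 and 587 CPM with 25(OH)D. All control libraries were above all 25(OH)D libraries (log2 fold change -0.41, SE 0.0365, adjusted p = 7.57e-07).

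KRT80, a type II keratin found near the cell border in many epithelia, was present at a low level (chr12:52168996-52192000, minus strand). It measured 5.04, 5.00 and 4.62 CPM in control and 8.59, 7.54 and 8.47 CPM with 25(OH)D. The groups were separate, with a log2 fold change of 0.74 (SE 0.116, adjusted p = 1.61e-04).

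KRT23, a type I keratin of some glandular epithelia (chr17:40922696-40937634, minus strand), nearly vanished from the counts. It had 20, 24 and 16 counts in control and 2, 2 and 0 with 25(OH)D. Pooled over libraries and set against the TMM-scaled library sizes, control was 13.7 times the 25(OH)D level, with an exact 95% interval of 5.08 to 51.9 that covers counting error only. The fitted log2 fold change was -3.67 (SE 0.667, adjusted p = 6.26e-04). Low counts in these libraries were mostly even (66.0% to 68.0% of the values from 1 to 20, against 49.7% to 52.0% of values over 1000), and whether the mates of a read pair were counted one by one is not stated. With the counts halved the interval ran from 3.48 to 118.

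**Figure D2:**
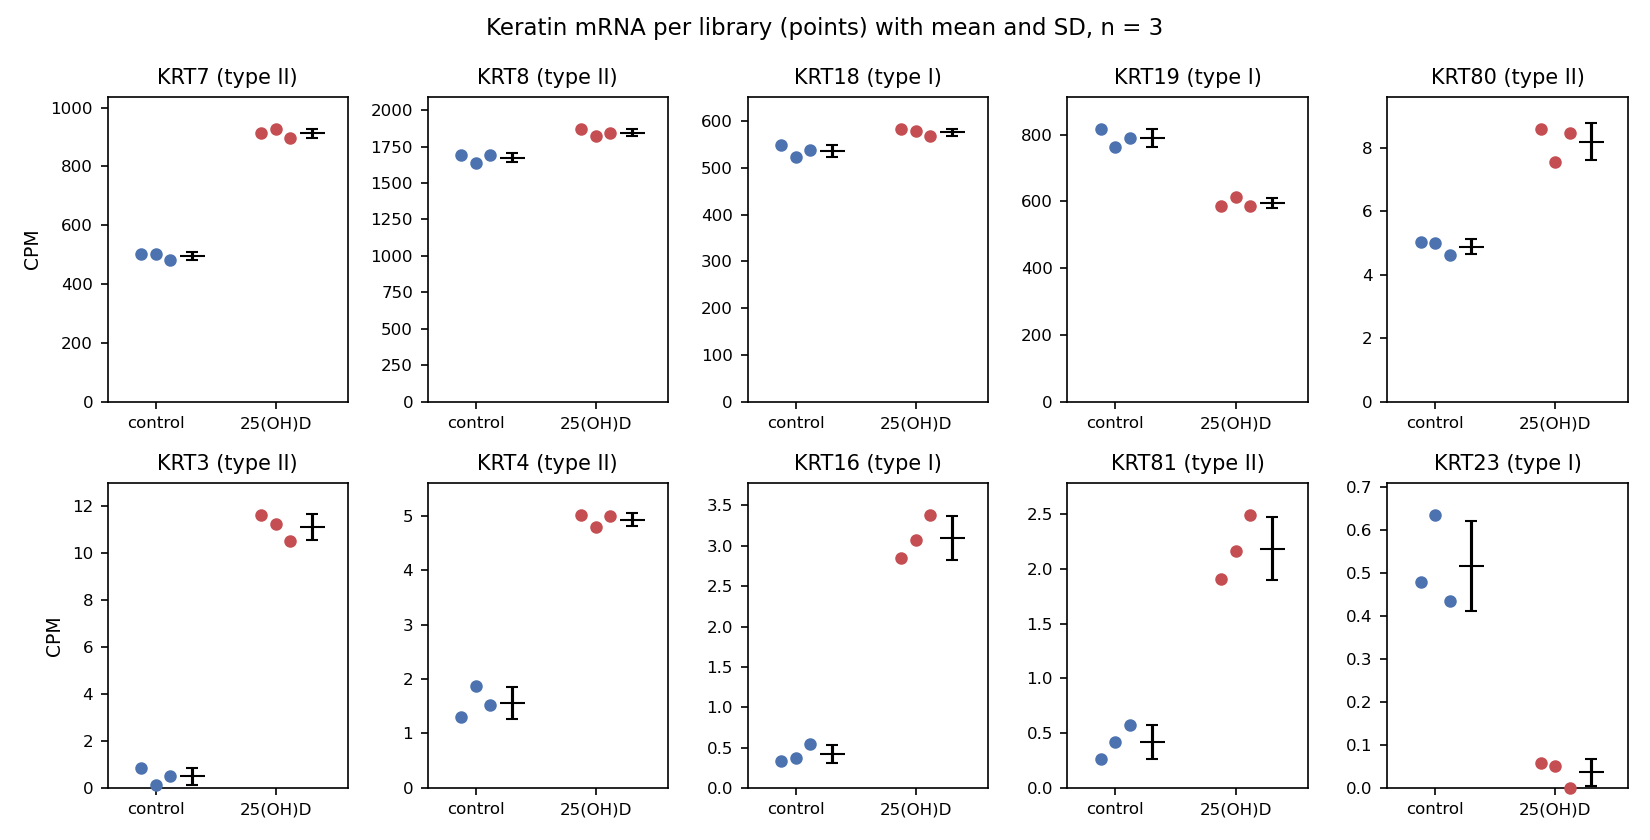
CPM of the 10 called keratins in each of the 6 libraries (points) with the mean and SD of each group, n = 3; each panel has its own axis from 0. The groups are separate in every panel, the abundant KRT8 moved from a mean of 1674 to 1844 CPM, and KRT3 moved from 0.488 to 11.1 CPM.

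Among the keratins of stratified epithelium, 6 of the 20 listed had enough counts for the test, and 3 were higher. None was lower by edgeR, DESeq2 or limma, and at an unadjusted p under 0.05 the number lower was also 0. KRT3, a type II keratin of the corneal epithelium (chr12:52789685-52796117, minus strand), had 35, 4 and 19 counts in control and 408, 433 and 342 with 25(OH)D. In CPM these were 0.841, 0.106 and 0.516 against 11.6, 11.3 and 10.5, a mean of 0.488 ± 0.368 against 11.1 ± 0.569 (SD, n = 3). Relative to their mean, the control libraries differed among themselves by more than the 25(OH)D libraries did, and all lay far below them. The log2 fold change of 4.48 (SE 0.295, adjusted p = 3.02e-08) was the largest of any keratin tested. It was 5.16 without control library 1, which had the most counts of the control group, and between 4.02 and 4.53 without any other library.

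KRT4, a type II keratin of moist stratified epithelia such as the lining of the oesophagus (chr12:52806549-52814551, minus strand), had 54, 71 and 56 counts in control and 176, 184 and 163 with 25(OH)D. The mean went from 1.57 ± 0.293 to 4.93 ± 0.126 CPM (SD, n = 3). The groups were separate, with a log2 fold change of 1.66 (SE 0.176, adjusted p = 4.45e-06). KRT13, the type I keratin that pairs with KRT4, was not tested, with at most 5 counts in any library. KRT12, the type I partner of KRT3 in the cornea, had at most 2 counts in any library. Both partners were thus near the limit of detection in every library.

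KRT16, a type I keratin of hair follicle sheath and of skin in repair (chr17:41609778-41615899, minus strand), had 14, 14 and 20 counts in control and 100, 118 and 110 with 25(OH)D. The 25(OH)D libraries were all far above the control libraries (log2 fold change 2.89, SE 0.257, adjusted p = 7.14e-07). The usual type II partners of KRT16 are the KRT6 genes: KRT6A had 6, 6 and 2 counts in control and 10, 4 and 2 with 25(OH)D, while KRT6B and KRT6C had at most 4 in any library. The pseudogene KRT16P3, which shares 100-base stretches with KRT16, had 0, 0 and 2 counts in control and 25, 56 and 64 with 25(OH)D. Of the 100-base stretches of KRT16 transcripts, 4.69% also occur in other genes, so reads of these stretches cannot be assigned with certainty. Summed with KRT16P1, KRT16P2 and KRT16P3, KRT16 had 14, 14 and 22 counts in control and 137, 184 and 177 with 25(OH)D.

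The other keratins of stratified epithelium that were tested did not pass. KRT5, the type II keratin of basal cells (chr12:52514575-52520687, minus strand), had 4, 2 and 10 counts in control and 14, 18 and 3 with 25(OH)D. Its groups overlapped (log2 fold change 1.21, SE 0.686, adjusted p = 0.202). KRT10, the type I keratin of the upper epidermis (chr17:40818117-40822595, minus strand), had 522, 374 and 262 counts in control and 206, 308 and 373 with 25(OH)D. Its values spread widely within each group and overlapped between them (log2 fold change -0.23, SE 0.216, adjusted p = 0.455). KRT15, a type I keratin of basal cells and the follicle bulge (chr17:41513743-41522529, minus strand), had 111, 87 and 71 counts in control and 67, 74 and 51 with 25(OH)D. In CPM its groups did not overlap, but the change was within error (log2 fold change -0.35, SE 0.207, adjusted p = 0.218).

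Of the 11 keratins of hair and nail in the table, 2 were tested. KRT81, a type II keratin of the hair cortex (chr12:52285913-52291534, minus strand), had 11, 16 and 21 counts in control and 67, 83 and 81 with 25(OH)D. The mean went from 0.419 ± 0.153 to 2.18 ± 0.291 CPM (SD, n = 3), with no overlap (log2 fold change 2.38, SE 0.306, adjusted p = 2.84e-05). KRT81 shares 29.7% of its 100-base stretches with other genes, almost all with KRT86, another hair keratin. KRT86 itself had 4, 2 and 3 counts in control and 5, 8 and 7 with 25(OH)D. Its 25(OH)D libraries were also all above its control libraries, at counts too low to test. KRT32, a type I hair keratin (chr17:41459811-41467429, minus strand), had 19, 23 and 33 counts in control and 11, 20 and 22 with 25(OH)D. Its groups overlapped (log2 fold change -0.37, SE 0.415, adjusted p = 0.535).

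The remaining 29 keratins had too few counts to test, between 1 and 55 over all 6 libraries. In 16 of them no library had more than 3 counts, which are worth 0.0720 to 0.0921 CPM. None of the 5 keratins of the inner root sheath and companion layer was tested, and KRT73, the one with most counts among them, had 8, 8 and 2 in control and 10, 2 and 2 with 25(OH)D. KRT14, the type I partner of KRT5 in basal cells, had 4, 6 and 1 counts in control and 24, 8 and 12 with 25(OH)D. The groups did not overlap, and with no low-count filter KRT14 had an adjusted p of 0.0227 (edgeR), the only one of the 29 to pass. Of the stretches of KRT14 transcripts, taken as for KRT16, 4.08% also occur in other genes, most often in KRT16, which was higher. Reads of these stretches cannot be assigned with certainty, and their part in the KRT14 counts was not tested. KRT17, a type I keratin of skin appendages and of skin in repair, had 4, 4 and 2 counts in control and 8, 14 and 2 with 25(OH)D. KRT9, the type I keratin of palm and sole, had 6, 0 and 0 counts in control and 8, 10 and 6 with 25(OH)D. The KRT9 groups did not overlap, and with no low-count filter its adjusted p was 0.181 (edgeR). Small differences in the untested keratins were not detectable at this depth.

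**Figure D3:**
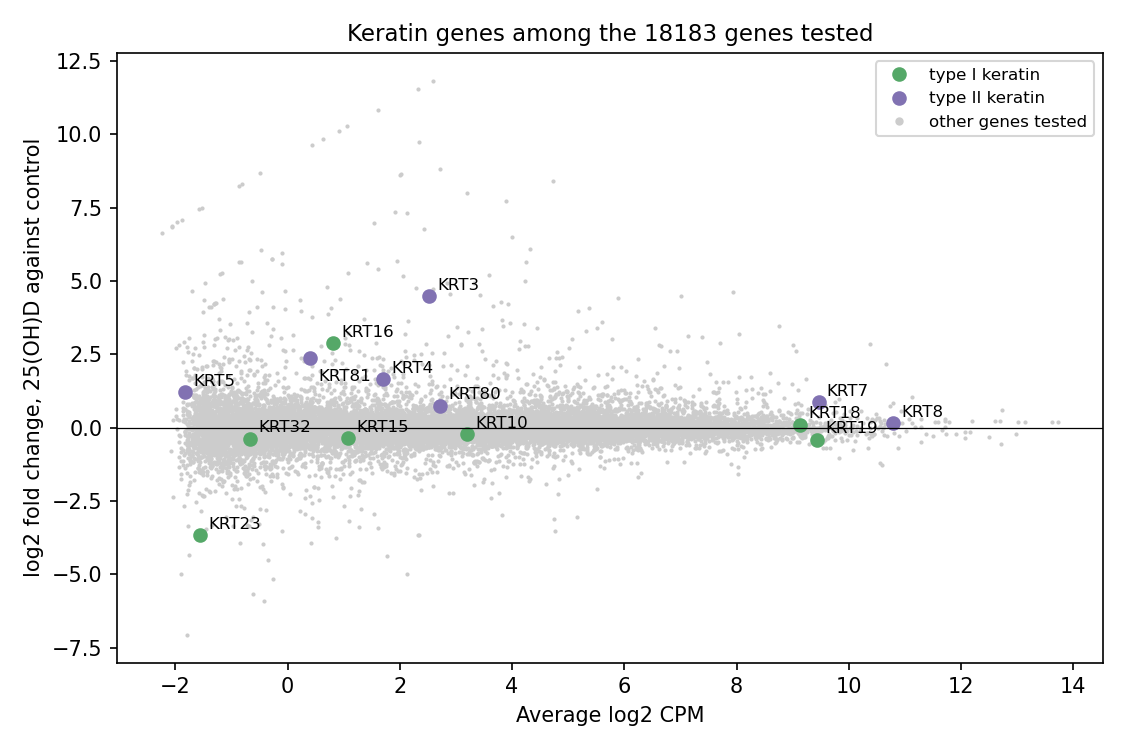
Log2 fold change of 25(OH)D against control for each of the 18183 genes tested, against the average log2 CPM, with the 14 keratins in colour. KRT7, KRT8, KRT18 and KRT19 sit at the right among the most abundant genes, and the keratins past a log2 fold change of 1 in either direction lie at lower average levels than these 4.

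With the exon lengths of the table, KRT19 had the highest level of any keratin in control and KRT8 with 25(OH)D. In control, the RPKM were 343 ± 11.5 for KRT19, 247 ± 4.37 for KRT8, 169 ± 4.09 for KRT18 and 123 ± 3.60 for KRT7 (SD, n = 3), and no neighbours in this order overlapped. With 25(OH)D, they were 264 ± 2.38 for KRT8, 251 ± 8.12 for KRT19, 219 ± 4.86 for KRT7 and 176 ± 2.97 for KRT18. KRT8 and KRT19 were then close: the lowest KRT8 library had 262 RPKM and the highest KRT19 library 260. This order depends on the gene length. The table counts 6881 exon bases for KRT8, whereas its principal transcript has 2126. With principal transcript lengths, KRT8 was highest in both groups, at 799 ± 14.2 RPKM in control and 854 ± 7.70 with 25(OH)D. KRT19 followed in control at 577 ± 19.3, ahead of KRT18 at 349 ± 8.42 and KRT7 at 287 ± 8.40. With 25(OH)D, KRT7 at 512 ± 11.3 was above KRT19 at 422 ± 13.6 and KRT18 at 363 ± 6.11 (SD, n = 3).

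The 43 keratins together took 0.365%, 0.351% and 0.355% of all counts in control and 0.392%, 0.395% and 0.386% with 25(OH)D. Of their summed RPKM by the table's lengths, KRT7 held 13.8% ± 0.458 in control and 23.7% ± 0.153 with 25(OH)D, and KRT19 held 38.5% ± 0.404 and 27.1% ± 0.458 (SD, n = 3). KRT8 held 27.7% ± 0.351 and 28.5% ± 0.493, and KRT18 held 19.0% in both groups. The other 39 keratins together held 0.935% ± 0.135 and 1.70% ± 0.138. With principal transcript lengths, KRT8 held the largest share in both groups, 39.5% ± 0.397 and 39.4% ± 0.561. KRT19 then held 28.6% ± 0.348 and 19.4% ± 0.419, KRT7 14.2% ± 0.447 and 23.6% ± 0.204, and KRT18 17.3% ± 0.0781 and 16.8% ± 0.102. With either length, the share of KRT7 was higher and that of KRT19 lower in every 25(OH)D library than in any control library.

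Set against each other, the RPKM of type I keratins over those of type II keratins was 1.42, 1.37 and 1.39 in control and 0.866, 0.895 and 0.877 with 25(OH)D. All 3 control libraries lay above all 3 25(OH)D libraries, and the log2 ratio differed by -0.66 between the groups. With the length of the principal transcripts, the ratio was 0.871, 0.842 and 0.856 in control and 0.568, 0.586 and 0.573 with 25(OH)D. Which type was more abundant in control therefore depended on the length used, whereas the direction of the difference did not. Without KRT7 and KRT19 the log2 ratio differed by -0.07, and without KRT7 alone by -0.39. KRT7 over KRT8, both type II, went from 0.498 ± 0.0186 to 0.832 ± 0.0193 (SD, n = 3). KRT19 over KRT18, both type I, went from 2.03 ± 0.0208 to 1.42 ± 0.0351. KRT8 over KRT18, the partners, was 1.46 ± 0.0153 in control and 1.49 ± 0.0208 with 25(OH)D. With principal transcript lengths, KRT7 over KRT8 went from 0.359 ± 0.0135 to 0.599 ± 0.0136, KRT19 over KRT18 from 1.65 ± 0.0153 to 1.16 ± 0.0300, and KRT8 over KRT18 was 2.29 ± 0.0208 and 2.35 ± 0.0306. These sums were not tested, because their members were chosen with earlier results known.

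**Figure D4:**
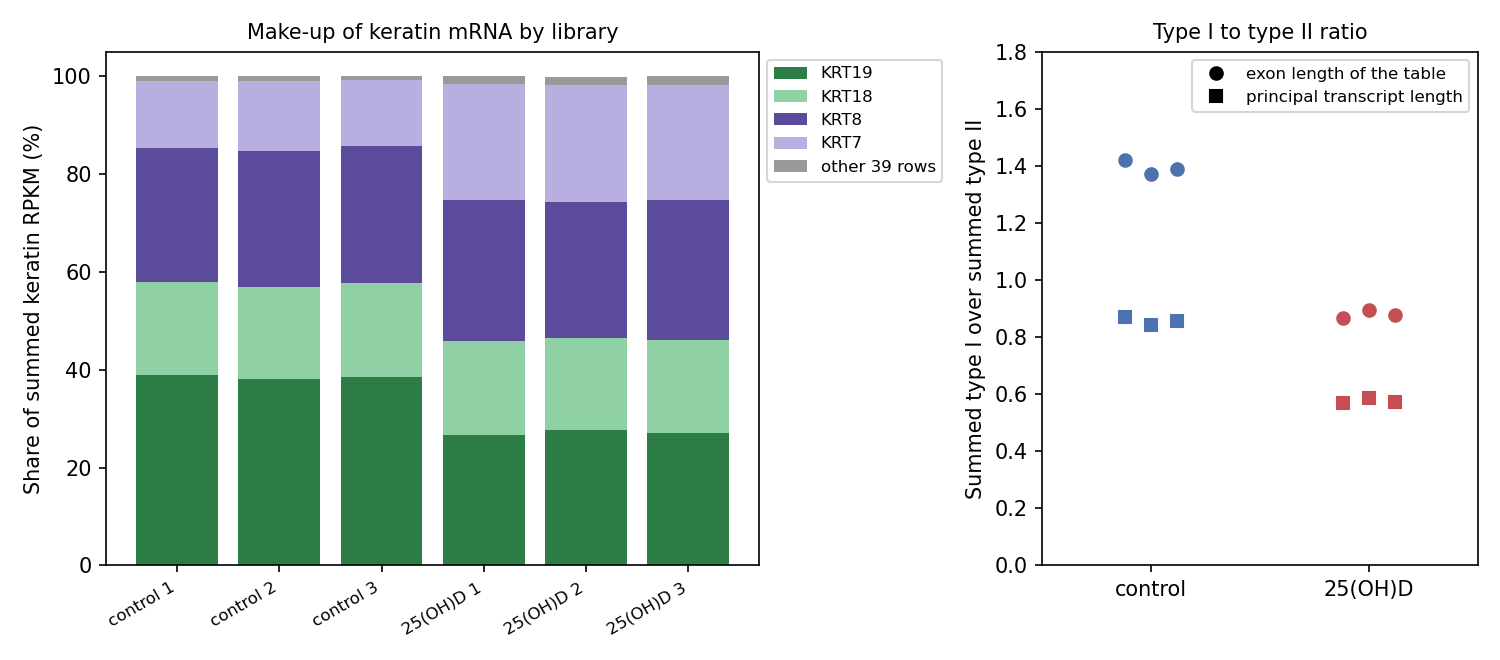
Left, share of the summed keratin RPKM, by the exon length of the table, held by KRT19, KRT18, KRT8, KRT7 and the other 39 keratins in each of the 6 libraries. Right, summed type I over summed type II RPKM per library, with the exon length of the table (circles, 1.37 to 1.42 in control and 0.866 to 0.895 with 25(OH)D) and with the principal transcript length (squares).

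Along chromosome 12, the higher type II genes were spread over the cluster. KRT80 and KRT7 are neighbours at one end, KRT81 comes next among the tested genes and lies within the span of KRT86 on the other strand, KRT3 and KRT4 are neighbours further on, and KRT8 lies beside KRT18 at the other end. Between KRT81 and KRT3 the table has 15 type II genes, of which KRT5 alone was tested. On chromosome 17, KRT16 lies between the untested KRT14 and KRT17, and KRT19 lies beside KRT15, which did not pass the test.

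**Figure D5:**
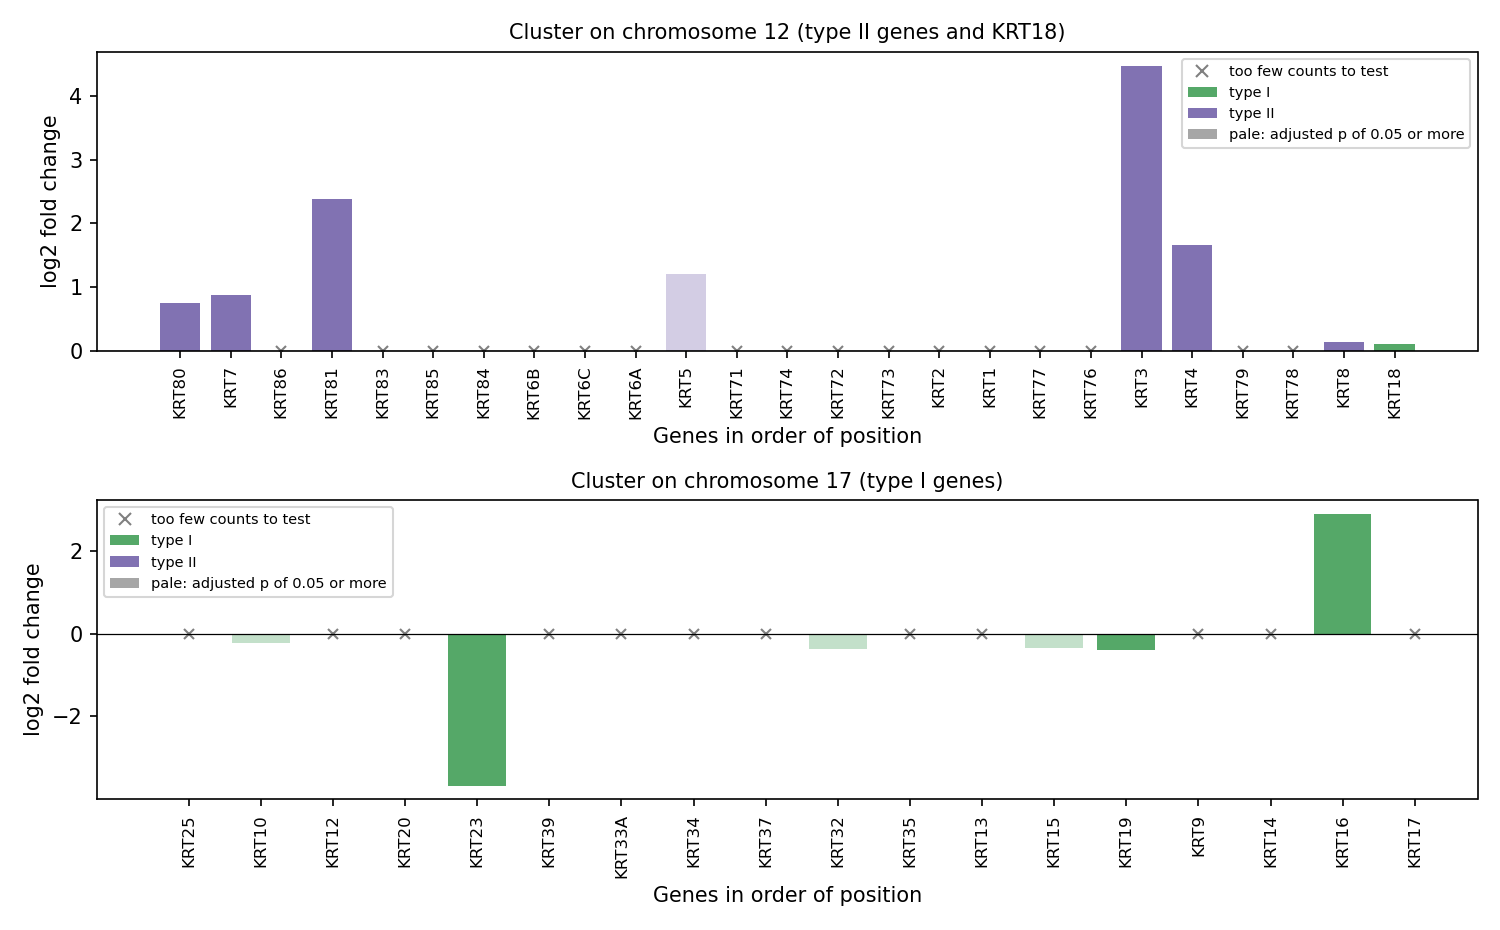
Log2 fold change of 25(OH)D against control for the keratins in the order of their positions on chromosome 12 (top) and chromosome 17 (bottom); pale bars have an adjusted p of 0.05 or more, and crosses mark genes with too few counts to test. KRT3 and KRT4 stand side by side at 4.48 and 1.66, and KRT16 at 2.89 stands between 2 untested genes.

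Keratin filaments are anchored to desmosomes and hemidesmosomes by linker proteins, and other cytoskeletal and nuclear filaments belong to the same family. Among 28 linkers and binding partners, 22 had enough counts, with 3 higher, 11 lower and a median log2 fold change of -0.22, where 17.3% of all genes were higher and 16.5% lower. PPL (periplakin, a plakin that joins filaments to the desmosome region) had the smallest p of the higher ones and went from 137 ± 6.60 to 215 ± 5.67 CPM (SD, n = 3; log2 fold change 0.65, SE 0.0445, adjusted p = 4.22e-08 by edgeR). DSP (desmoplakin, which ties keratin filaments to desmosomes) had the smallest p of the lower ones, at 38.2 ± 1.31 and 14.7 ± 0.446 CPM (log2 fold change -1.38, SE 0.0660, adjusted p = 8.27e-10 by edgeR). Of 16 other intermediate filament genes, 8 were tested and 6 were lower (median log2 fold change -0.33), against 16.5% of all genes. None was higher by edgeR, DESeq2 or limma, nor was any (0) at an unadjusted p under 0.05. LMNB1, which encodes lamin B1 of the nuclear lamina, led these at 381 ± 7.90 and 274 ± 13.5 CPM (log2 fold change -0.48, SE 0.0416, adjusted p = 5.76e-07 by edgeR).

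No gene of the cornified envelope and of keratinocyte differentiation passed as higher by edgeR, DESeq2 or limma, and 0 did so at an unadjusted p under 0.05. Of the 45 named in the list, 12 had enough counts and 2 were lower (median log2 fold change -0.10), a share near the 16.5% of all genes. CALML5, a calcium-binding protein of differentiating keratinocytes, went from 67.5 ± 2.10 to 27.4 ± 4.61 CPM (SD, n = 3; log2 fold change -1.31, SE 0.0901, adjusted p = 5.00e-08 by edgeR). The other, ABCA12, a lipid transporter of the epidermis, had a log2 fold change of -0.13 (SE 0.0473, adjusted p = 0.0457 by edgeR). Of the 2 calls, 1 was lost without control library 1 or 2 or 25(OH)D library 1 or 3. The same number was lost with DESeq2 and with DESeq2 size factors in edgeR.

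Of 31 transcription factors of epithelial and squamous fate, 28 were tested, with 9 higher and 9 lower (median log2 fold change -0.07), against 17.3% and 16.5% of all genes. The number of higher ones ran from 5 (without control library 3, or with limma) to 10 (with no low-count filter). It was 6 with upper-quartile factors or library sizes alone, and also without control library 2 or 25(OH)D library 2. GATA3, a factor of luminal cells and of the hair follicle, had the smallest p of the lower ones, at 262 ± 3.54 CPM in control and 151 ± 3.68 CPM with 25(OH)D (SD, n = 3; log2 fold change -0.80, SE 0.0380, adjusted p = 8.56e-10 by edgeR). It is also among 7 known regulators of hair keratin genes. Of these, 6 were tested, with 1 higher and 3 lower, against 17.3% and 16.5% of all genes. HOXC13, which drives hair keratin genes in the follicle, was among the lower ones (log2 fold change -0.53, SE 0.113, adjusted p = 0.00217 by edgeR), whereas the hair keratin KRT81 was higher.

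The line had the markers of a luminal epithelial cell, although TFF3 was near the filter's level, at 10 to 30 counts in a library. All 12 luminal markers were tested, with 7 higher and 3 lower in the 25(OH)D group, against 17.3% and 16.5% of all genes. The 3 lower ones were GATA3, FOXA1 and XBP1. The summed level of all 12 was lower, at 9529 to 9847 CPM in control and 7259 to 7449 CPM with 25(OH)D, and most of it was XBP1. Without XBP1 the sum was 1723 to 1777 CPM in control and 1943 to 1962 CPM with 25(OH)D. Of 10 basal or myoepithelial markers, 7 were tested and 3 (MME, TP63 and SOX10) were lower, against 16.5% of all genes. TP63 had 12, 26 and 19 counts in control and 3, 2 and 2 with 25(OH)D. SOX10 had 17, 14 and 13 counts in control and 2, 5 and 2 with 25(OH)D. Both were under the filter's level of 0.271 CPM in every 25(OH)D library, so they passed the filter through the control libraries alone. No marker of this list was higher by edgeR, DESeq2 or limma, and 1 was at an unadjusted p under 0.05. The list's summed level went from between 64.4 and 67.3 CPM to between 22.3 and 25.3 CPM. Most of this difference was MME, without which the sum was 17.1 to 19.6 CPM in control and 16.9 to 19.0 CPM with 25(OH)D. The basal keratins KRT5 and KRT14, at up to 18 and 24 counts in a library, differed from these lower markers. The KRT5 groups overlapped, and KRT14 had more CPM in every 25(OH)D library than in any control library. Reads of the stretches that KRT14 shares with KRT16, which was higher, cannot be assigned with certainty. Other members of the list differed from the lower markers too. MYLK, OXTR, TAGLN and CDH3 were called in neither direction, and the untested ACTA2 had more CPM in every 25(OH)D library than in any control library. Of 9 fibroblast markers only COL1A1 was tested, and it was lower (log2 fold change -0.18, SE 0.0601, adjusted p = 0.0320 by edgeR). No endothelial marker was tested (0.104 to 0.489 CPM summed). Of 8 leukocyte markers only CD68 was tested, and it was higher, with the list's sum between 4.71 and 6.29 CPM in control and between 13.7 and 19.8 CPM with 25(OH)D. PTPRC, the defining leukocyte marker, had at most 6 counts in any library and was not tested. The part of these marker changes in the keratin values was not tested, and in bulk RNA a change in the number of cells and a change per cell cannot be told apart.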

How the data were processed

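The authors deposited raw counts per gene and RPKM values for the same 6 libraries of MDA-MB-453 cells. The RPKM were recomputed from count, exon length and library total (largest relative difference 2.23e-13). The submitters' processing notes name Trimmomatic 0.36, featureCounts of Subread 1.5.1, edgeR 3.12.1 and GRCh38. The aligner, the strand setting and the annotation release are not given in the sources used here. A stranded, paired-end kit was used.

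The whole count table was fitted with edgeR 4.0.16 in R 4.3.3, using TMM factors, the package's low-count filter (minimum count 10) and its quasi-likelihood test, with treatment as the only term. Fold changes are on the log2 scale, and p-values were adjusted by Benjamini-Hochberg across 18183 genes. The biological coefficient of variation was 0.0788 over all genes. In simulated data for this comparison, with 200 changed genes of mixed fold sizes among 18117, the test recovered 184 and called 7 unchanged genes. The changed genes were drawn only from genes with more expected control counts than KRT3, KRT5, KRT16, KRT23 and KRT81 had. Recovery at such low counts was therefore not tested. No pair of replicates matched within sampling noise (chi-square per gene 3.85 to 11.2). The library totals limit precision at low counts. The 95% intervals of fold changes come from the edgeR fit, and the pooled interval of KRT23 covers counting error only.

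Alternatives used DESeq2 1.42.0 and limma 3.58.1 (log2 of RPKM plus 1 or plus 0.1). Gene positions, exon lengths and exon overlaps were those deposited with the counts. Principal transcripts and shared 100-base stretches came from GENCODE 29, and promoter windows from RefSeq (GRCh38.p14). Members and lists were chosen with earlier results of these data known. Values per library are given for KRT7, KRT8, KRT18, KRT19, each called keratin and the other tested keratins, and each list is represented by its called member of smallest p, higher and lower, apart from 1 gene that is not reported here. ABCA12, HOXC13, the lower basal markers and the untested keratins named were added after their values were seen. The other samples of the study were not analysed here.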

Additional observations from a re-analysis of the deposited data

How the results depend on the processing

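The number of keratins called higher was 8 and of those called lower 2. Across the other normalizations, filters and tests these were 7 to 9 and 2, with 9 when no low-count filter was used. Leaving out each library in turn gave 7 to 8 higher, 2 lower and 5 to 7 past the limits on fold change, against 5 with all libraries. With limma on log2(RPKM + 1), 1 keratin was past those limits, since adding 1 shrinks the change of genes with low RPKM. Replicate numbers did not pair the libraries (correlations of same-numbered deviations -0.0721, -0.012 and -0.046), and with a replicate block 8 keratins were higher, 2 lower and 5 past the limits. The difference in the log2 ratio of type I to type II RPKM, -0.66, was -0.53 from summed CPM, -0.39 without KRT7 and -1.31 without KRT8 and KRT18. In settings chosen after seeing the data, it was -0.57 with principal transcript lengths, which also put KRT8 above KRT19 in both groups, and -0.0748 without KRT7 and KRT19. It ran from -0.68 to -0.65 with each library left out. No keratin changed direction under any alternative, and KRT18 alone lost its call, also with limma on log2(RPKM + 1) and log2(RPKM + 0.1). Depth limits the 29 untested keratins, for which the counts could show large differences at most.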
